A study of Mus musculus with 8 samples.

Results

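Strong insulation minima are places where few Hi-C contacts pass from one side to the other. They were taken from the 3 h libraries of mouse B cells activated with lipopolysaccharide (LPS), a bacterial product, and their depth was then followed through the first cell cycle. Insulation was calculated for each 50 kb bin as the log2 of the mean read-pair count between the 10 bins before it and the 10 bins after it, over the chromosome mean of that count, so a low value means that few contacts cross the bin. The members were chosen by their insulation in the sum of both 3 h libraries. Prominence is the rise from a local minimum to the highest value before it or after it, whichever is lower. Each side is searched out to a deeper bin or the chromosome end, so prominence can exceed the rise next to the minimum. Local minima with a prominence of at least 1.0 and at least 3 bins apart were kept. This gave 944 minima among 46751 autosomal bins with a value. A further 1340 minima had a prominence from 0.2 to under 1.0 and are called weaker minima here.

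In situ Hi-C ligates chromatin ends that lie close together in the nucleus, so that each read pair records 1 contact. The 8 libraries formed 4 groups of 2 biological replicates, all splenic B cells from mice given in the study's methods as males of 6 to 12 weeks on a C57BL/6 Pep3b background, cultured with 25 µg/ml LPS. The C57BL/6 cells were sorted after 3 h, 10 h or 33 h as undivided, activated (CD69+) cells, and the 33 h group is called imminent division. The pre-S cells were also undivided cells at 33 h, but came from C57BL/6 FUCCI mice, which carry fluorescent reporters of the cell cycle, and were sorted on those reporters for cells before DNA synthesis, so that strain, sort gate and stage cannot be told apart in that group. Libraries held 88703088 to 218945191 read pairs, the most at imminent division, and 70.9% to 75.1% of autosomal pairs joined places on the same chromosome, with the 2 lowest shares at imminent division. The second imminent division library stood apart on the sex chromosomes, with 3.74% of read ends on X against 2.39% to 2.84% in the other 7 libraries and 0.0490% on Y against 0.0804% to 0.123%. These shares set it apart from libraries labelled alike, whose mice the methods give as male, and the counts of minima called in each contrast of that group are therefore given without it as well. Hi-C holds no expression, so the cell type was not checked against marker genes. In bulk cells, fewer cells with a boundary and a weaker boundary in each cell cannot be told apart.

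Mammalian chromosomes are folded into topologically associating domains (TADs), stretches whose loci meet each other more often than they meet loci outside. Cohesin extrudes loops of chromatin until it meets CTCF, a zinc finger protein bound to DNA with its motif facing the loop, and borders of TADs often hold CTCF sites of divergent orientation. On a larger scale, active (A) and inactive (B) chromatin form separate compartments, and the places where they meet also insulate. In mitosis TADs and compartments are lost and are rebuilt in the next G1 phase.

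The strong minima had a median prominence of 1.78 at 3 h (interquartile range 1.37 to 2.67, highest 5.89), and their median 3 h insulation was −1.24. Of the 944, 912 lay below the mean of their chromosome. They were spread over all 19 autosomes, from 3.03 per 10 Mb on chromosome 3 to 5.23 on chromosome 19, with a median of 1950 kb between neighbours. The windows of 85 minima held at least 1 bin left out for its sequence or coverage, and 2 windows spanned an assembly gap. The 3 minima just inside the threshold had prominences of 1.001 (Arl11, chromosome 14), 1.003 (Them7, chromosome 2) and 1.004 (Rps6ka2, chromosome 17), and 2 just outside it 0.998 (Fntb, chromosome 12) and 0.999 (Prlhr, chromosome 19).

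Most strong minima lay where compartments meet. Compartments were called from the first principal component of contact correlations in the summed 10 h libraries, with A the side richer in gene starts. These libraries are also the baseline of the contrast with imminent division that is split by compartment below. Values were had on both sides of 941 strong minima. Of the 944, 542 (57.4%) had A on one side and B on the other, against 24.7% of weaker minima and 17.6% of all bins. Both sides were A at 29.2% and B at 13.0%, against 39.4% and 42.9% of all bins. The bin of a strong minimum held the start of a protein-coding gene in 33.6% of cases, against 43.5% at weaker minima and 28.0% over all bins. Base composition and the number of cut sites differed little, with a median GC content of 43.0% against 41.4% and a median of 125 MboI fragments per bin against 123. These shares are descriptions, since neighbouring bins are not independent.

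A match to the CTCF core motif, searched on both strands of GRCm38, was found in 37.1% of the strong minima, against 33.9% of weaker minima and 20.5% of all bins. The strand of the matches turned across the minima. In the bin 50 kb before the minimum there were 0.245 matches per bin on the reverse strand and 0.159 on the forward strand. In the bin 50 kb after it the forward strand held 0.243 and the reverse strand 0.192, and at 100 kb after it 0.204 and 0.122. Over all bins the values were 0.126 on the forward strand and 0.130 on the reverse strand. The weaker minima had the same arrangement, with 0.239 reverse and 0.130 forward matches per bin at 50 kb before and 0.209 forward and 0.150 reverse at 50 kb after.

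**Figure D1:**
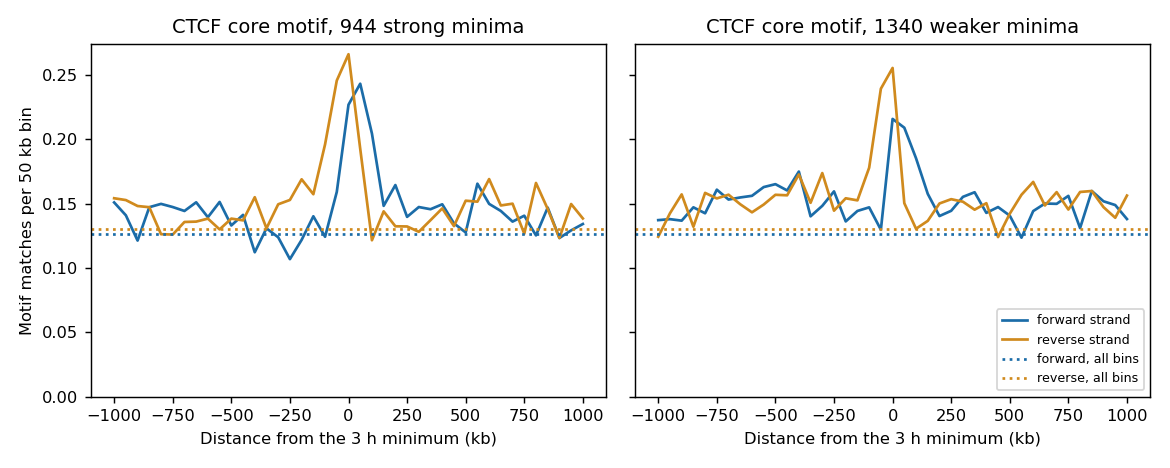
Matches to the CTCF core motif per 50 kb bin, by strand, against the distance in kb from the 944 strong minima (left) and the 1340 weaker minima (right), with dotted lines for all bins. At 50 kb before the strong minima the reverse strand is the higher (0.245 per bin), and at 50 kb after them the forward strand is (0.243 per bin). At the strong minima this order holds out to 300 kb before and 450 kb after them, and at the weaker minima to 200 kb before and 150 kb after. Beyond these distances the order of the strands varies.

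The matches in the bins of 6 minima described in detail further on show these sequences with their strands. Each is given 5′ to 3′ on the strand that carries the match, from the GRCm38 sequence, with the core motif in capitals and 9 bases on each side. The minimum in Kif6 holds a reverse match before a forward match, the divergent arrangement that the profile shows on average.
Pglyrp4, chr3:90710225-90710254, reverse strand: atgttgcagCCAGCAGGGGGCagtgtgagc
Mup6, chr4:60024496-60024525, forward strand: tcagcttggCCAGTAGAGGGCaaccgtgcc
Chromosome 12 minimum next to Rps29, chr12:69127351-69127380, forward strand: ccagtatgcCCAGCAGAGGGCagtatttgc
Fbxo32 and Wdyhv1, chr15:58188193-58188222, reverse strand: ttcctgaacCCACTAGGGGGCtctaagctg
Bcl6, chr16:23984354-23984383, forward strand: cgtgacctaCCACTAGGTGGCggactcagt
Kif6, first match, chr17:49852429-49852458, reverse strand: ccactgtacCCAGCAGGTGGCagcccttgc
Kif6, second match, chr17:49883310-49883339, forward strand: ccaaggaggCCAGCAGAGGGCgtctggcat
A match describes the sequence only, and CTCF binding was not measured here.

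Most strong minima were present in the libraries that had not chosen them. A minimum of prominence 0.2 or more lay within 1 bin of the member in 94.0% and 94.7% of cases in the 10 h libraries, 89.4% and 89.1% at imminent division and 90.8% in both pre-S libraries, against 14.8% to 15.7% of all bins. Of the 944, 780 (82.6%) were found in all 6 of these libraries and 19 in none. With a prominence of at least 1.0 asked of each library, the shares of strong minima were 87.3% and 86.1% at 10 h. They were 70.9% and 71.1% in the imminent division libraries and 79.8% and 79.3% in pre-S cells, against 5.31% to 6.42% of all bins. When the rule was applied to the other groups, 10 h gave 947 minima, imminent division 834 and pre-S 987. Of the 3 h list, 87.4% lay within 1 bin of the 10 h list, 70.9% of the imminent division list and 80.3% of the pre-S list.

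The minima were shallowest at imminent division. Median insulation at the 944 minima was −1.21 and −1.25 in the 3 h libraries, −1.26 and −1.22 at 10 h, −0.94 and −0.99 in the imminent division libraries and −1.15 and −1.13 in pre-S cells. The 3 h and 10 h libraries overlapped, and both imminent division libraries lay above all others. Depth, the mean insulation of the flanking 3 h maxima minus that of the minimum, is given here as the median fold of crossing contacts at the flanks over those at the minimum. It was 2.78-fold and 2.84-fold in the 3 h libraries, 2.84-fold and 2.73-fold at 10 h, 2.29-fold and 2.38-fold at imminent division, and 2.79-fold and 2.67-fold in pre-S cells. Of the 944, 882 (93.4%) and 854 (90.5%) were shallower than the mean of 10 h in the imminent division libraries. In the pre-S libraries 530 (56.1%) and 662 (70.1%) were. The 10 h libraries gave 31.5% and 68.5% against their own mean, and the 3 h libraries 53.2% and 44.0%. Median insulation at the weaker minima was −0.29 and −0.28 at 10 h and −0.24 and −0.22 at imminent division. Over all bins it rose more, from −0.31 in both 10 h libraries to −0.16 and −0.20 at imminent division. The depth of the weaker minima, a log2 value, fell, with library medians of 0.70 and 0.68 at 10 h and 0.56 and 0.58 at imminent division. The group means of these medians were 0.69 and 0.57, beside 1.48 and 1.22 at the strong minima.

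**Figure D2:**
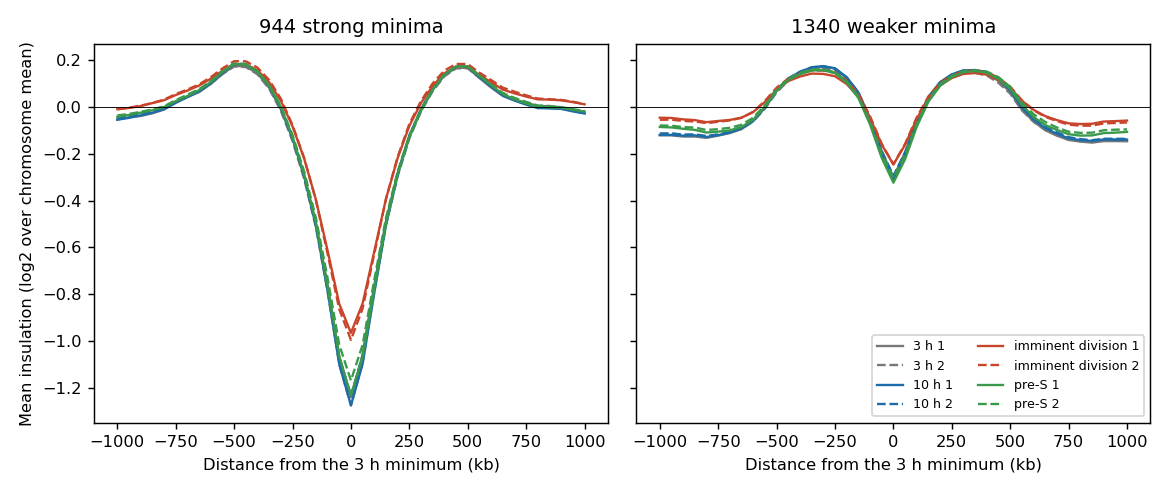
Mean insulation (log2 over the chromosome mean) against distance in kb from the 3 h minimum, 1 line per library, for the strong minima (left) and the weaker minima (right). At the strong minima the imminent division libraries reach −0.96 and −0.99 and the 10 h libraries −1.27 and −1.23.

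**Figure D3:**
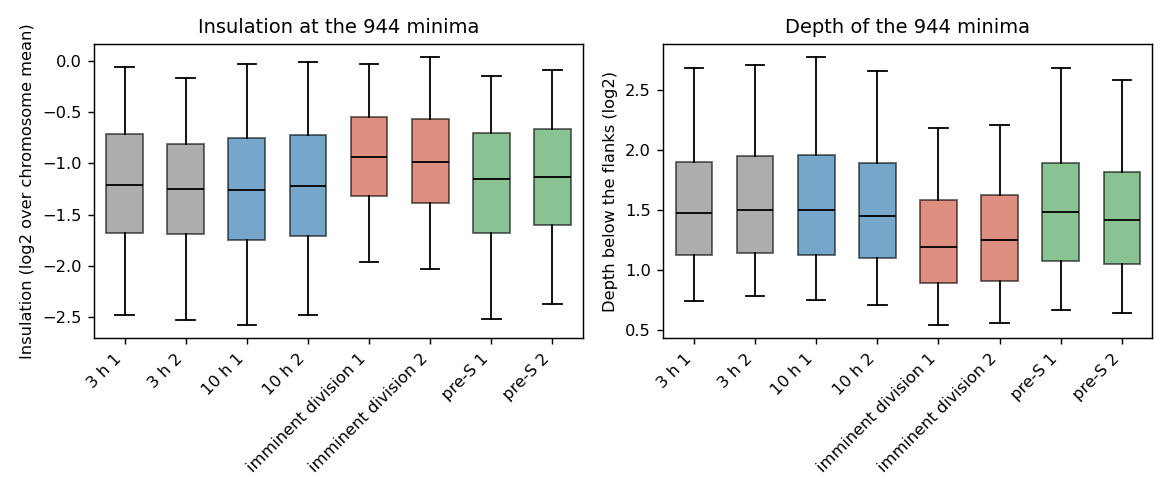
Insulation (left) and depth (right, both log2) of the 944 strong minima in each library. The line is the median, the box the interquartile range and the whiskers the 5th and 95th percentiles over minima. Both imminent division boxes have median depths of 1.25 or lower, and the other 6 libraries of 1.42 or higher.

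The spread of insulation over all bins moved in the same direction. Its standard deviation was 0.80 and 0.79 at 10 h, 0.57 and 0.64 in the imminent division libraries and 0.66 and 0.66 in pre-S cells, and the part of this narrowing in the change at the minima was not tested. By distance, contacts across the minima were 0.461 and 0.468 of the chromosome mean at 200 kb in the 10 h libraries, and 0.576 and 0.574 at imminent division. At 900 kb the values were 0.527 and 0.545 against 0.562 and 0.561, so the gap between the groups was smaller at the longer distance. In pre-S cells they were 0.476 and 0.484 at 200 kb and 0.510 and 0.536 at 900 kb.

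The cells about to divide were first compared with those of 10 h, to ask whether boundaries had weakened by then. With edgeR's quasi-likelihood test at a false discovery rate of 5%, 631 of the 944 minima changed. Of these, 604 went to higher insulation values (more crossing contacts over the chromosome mean) and 27 to lower ones. Insulation alone does not tell a weaker boundary from a rise that its surroundings share. Over all bins 68.1% were called, 45.2% higher and 22.9% lower, so the number called is that of the background and the split is not. Among calls, 95.7% were higher at the minima and 66.4% over all bins. The median log2 change was 0.26 at the minima (interquartile range 0.10 to 0.42) and 0.12 over all bins. It was 0.05 at the weaker minima, of which 479 rose and 323 fell out of 1340. Scaling by TMM factors moved the median of all bins to 0.01 and gave 430 higher and 75 lower minima, 85.1% of calls higher, with 61.9% of all bins called, 29.8% higher and 32.1% lower. Windows of 20 bins gave 398 higher and 117 lower minima (77.3% of calls higher) with a median of 0.12, against 0.07 over all bins, of which 41.7% were higher and 26.6% lower. Without the second imminent division library 554 were higher and 28 lower, beside 44.6% and 23.6% of all bins.

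The same question was asked of the cross-to-within ratio, which divides the pairs that cross a minimum by those within its flanking windows, each over the count expected at that distance. This ratio rose at 733 minima and fell at 38, where the background was 72.3% called, 46.8% higher and 25.4% lower. Its median log2 change was 0.25 at the minima, or 1.19-fold, and 0.07 over all bins. Windows of 20 bins gave 528 higher and 138 lower minima with a median of 0.11, against 0.03 over all bins, of which 43.7% were higher and 34.0% lower. Both measures rose together at 572 minima, fell together at 13 and were called in opposite directions at 2, beside 37.8%, 18.9% and 0.342% of all bins. Without the second imminent division library, 731 rose and 27 fell, beside 41.7% and 23.0% of all bins.

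**Figure D4:**
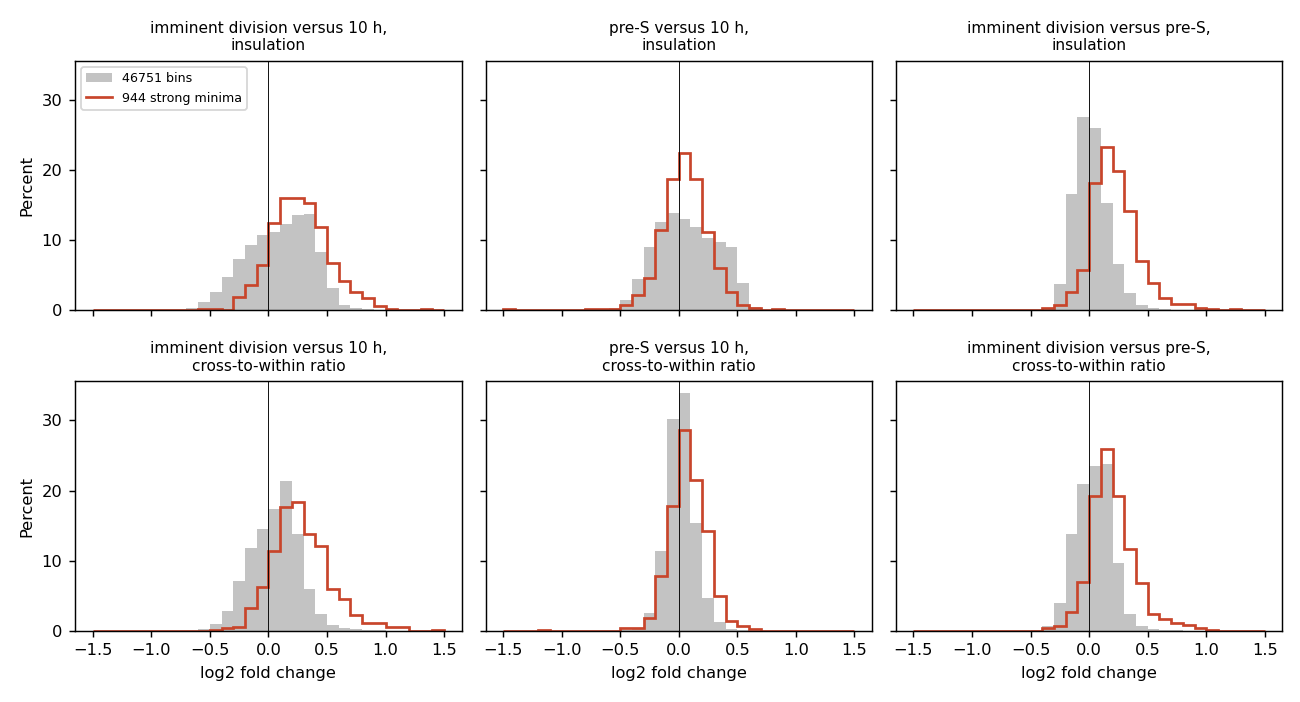
Distribution of log2 fold changes of insulation (top) and of the cross-to-within ratio (bottom) in 3 contrasts, in percent of the 944 strong minima (red line) and of all 46751 bins (grey). In both contrasts of imminent division the minima lie to the right of all bins, with insulation medians of 0.26 against 0.12 (versus 10 h) and 0.20 against 0.01 (versus pre-S), and in that of pre-S with 10 h the insulation medians are 0.05 and 0.06.

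The direction differed between compartments over all bins, and less so at the minima. Where A met B, insulation rose at 400 and fell at 6 of 542 minima (median log2 change 0.33, against 0.13 for all such bins, of which 45.6% rose and 8.57% fell). Within A, 110 of 276 minima rose and 21 fell, while over all bins within A 9.57% rose and 53.2% fell, with medians of 0.11 and −0.14. Within B the minima followed their surroundings, with 92 of 123 rising and 0 falling (77.7% and 0.937% of all B bins) and medians of 0.31 and 0.30. The ratio within B had medians of 0.18 at the minima and 0.16 over all B bins. Minima with a CTCF core motif had a median insulation change of 0.20 and those without 0.29, beside −0.01 and 0.16 over all bins with and without the motif.

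The 5 most prominent minima were described by their values, as their prominence chose them. All 5 lay at a compartment border, and in 4 of them both imminent division libraries stood above the other 6. The most prominent lay on chromosome 3 (90700802–90750445) at the start of Pglyrp4, which encodes a peptidoglycan recognition protein. Its insulation was −3.96 and −3.76 in the 3 h libraries, −3.55 and −3.75 in those of 10 h, −2.74 and −2.92 at imminent division and −3.89 and −3.77 in pre-S cells. In read pairs, 138 and 157 crossed it at 10 h and 491 and 498 at imminent division, in libraries of different depth (log2 change 0.83 ± 0.11 SE, edgeR adjusted p = 3.27e-05). A minimum within Ctnna3, a catenin gene, on chromosome 10 (63449830–63500816) had −3.85 and −3.64 at 10 h and −2.68 and −2.90 at imminent division (log2 change 0.94 ± 0.11 SE, edgeR adjusted p = 1.33e-05). The chromosome 12 minimum (69099800–69149982) next to the starts of Rps29 and Rpl36al, ribosomal protein genes, changed by 0.68, and the one over Mup6, a major urinary protein gene, by 0.74, the latter with 50 of 100 bin pairs kept in its window. The exception lay on chromosome 8 (20812179–20850176), over no protein-coding gene, with −3.87 and −3.67 at 10 h and −3.99 and −4.04 at imminent division (edgeR adjusted p = 0.113) and 63 bin pairs kept.

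The 4 rises of smallest p at imminent division were at Sdr16c5, within Kif6, and at minima of chromosomes 18 and 8 over no gene. At Sdr16c5 (chromosome 4, 4000055–4049787), a gene of the retinol dehydrogenase family, insulation was −2.52 in both 10 h libraries, −1.58 and −1.54 at imminent division and −2.10 and −2.04 in pre-S cells. The 3 groups did not overlap, and pre-S cells lay in between (log2 change 0.96 ± 0.07 SE at imminent division, edgeR adjusted p = 8.99e-07, and 0.45 ± 0.08 SE in pre-S cells, edgeR adjusted p = 4.88e-04). Within Kif6, a kinesin gene (chromosome 17, 49849909–49900149), it was −2.04 and −2.06 at 10 h, −1.15 and −1.19 in the imminent division libraries and −2.03 and −1.98 in pre-S cells. Between pre-S cells and 10 h the difference in insulation did not pass (0.04 ± 0.08 SE, edgeR adjusted p = 0.630) while that in the ratio did (0.21 ± 0.07 SE, edgeR adjusted p = 0.0192), and imminent division differed from both (0.88 against 10 h and 0.84 against pre-S in insulation). Imminent division also stood above the other groups at the keratin genes Krt17 and Krt42 (chromosome 11, 100249793–100300339), with −3.17 and −3.08 at 10 h, −2.27 and −2.22 in the imminent division libraries and −3.26 and −3.13 in pre-S cells.

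**Figure D5:**
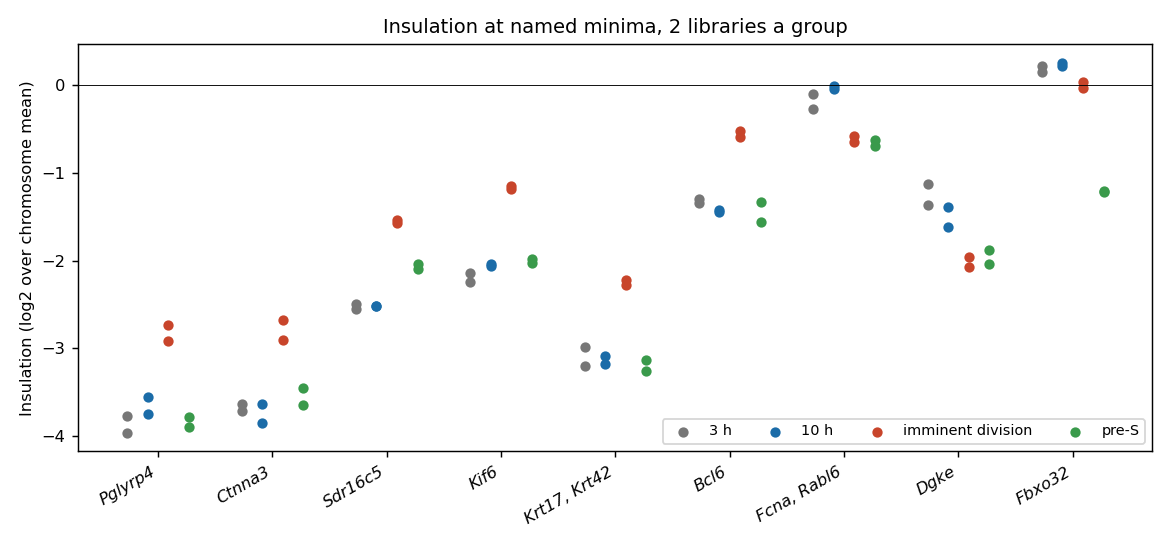
Insulation (log2 over the chromosome mean) at 9 named minima, 2 points per group, 1 per library. At the 6 minima on the left imminent division stands above 10 h, at the 3 on the right it stands below, and at Fbxo32 the pre-S libraries are at −1.22 and −1.21 with all others at −0.03 or above.

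At few minima did the insulation value fall at imminent division. Among those of smallest p, the minima at Fcna and in Mdm1 lay within A, and the one at Dgke where A met B. The bin with the starts of Fcna, a ficolin of innate immunity, Rabl6, Ccdc183 and Tmem141 (chromosome 2, 25600309–25650023) went from −0.05 and −0.01 at 10 h to −0.65 and −0.59 at imminent division and −0.70 and −0.63 in pre-S cells. Both 33 h groups lay below 10 h and did not overlap it (log2 changes −0.59 ± 0.06 SE and −0.63 ± 0.07 SE). The minimum at Dgke, a diacylglycerol kinase gene (chromosome 11, 89050419–89099975), went from −1.62 and −1.39 at 10 h to −1.96 and −2.07 at imminent division and −2.03 and −1.88 in pre-S cells. The one within Mdm1 fell by 0.25 in insulation, but its cross-to-within ratio did not pass (0.01 ± 0.04 SE, edgeR adjusted p = 0.891).

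The contrast of pre-S with 10 h asked how much of this was present before DNA synthesis, and it shares the 10 h libraries with the one above. It called 284 minima, 195 higher and 89 lower, where 59.3% of all bins were called, 36.9% higher and 22.4% lower. The median log2 change was 0.05 at the minima and 0.06 over all bins. The majority turned with the scaling, at the minima as over all bins. TMM factors gave 111 higher and 200 lower minima with a median of −0.04, beside 27.7% of all bins higher and 32.5% lower with a median of −0.03. Interchromosomal coverage in the offset gave 373 higher and 99 lower minima with a median of 0.12, beside 28.9% and 25.7% of all bins with a median of 0.02. The count also rested on single libraries, with 145 called when 10 h replicate 1 was left out, 151 for 10 h replicate 2, 154 for pre-S replicate 1 and 168 for pre-S replicate 2. The share of all bins called fell as well in these fits, to 39.4%, 40.7%, 36.7% and 44.7%. Without the second imminent division library it was 306, with 61.0% of all bins called. By compartment in the main fit, insulation rose at 17 and fell at 63 of 276 minima within A (median −0.07), beside 4.07% and 52.7% of A bins. Within B it rose at 60 and fell at 1 of 123 (median 0.20), beside 71.3% and 0.961% of B bins. Where A met B it rose at 117 and fell at 25 of 542 (median 0.08), beside 26.5% and 7.25%. The distance-matched ratio rose at 285 minima and fell at 55 (background 29.6% called, 16.7% higher and 12.9% lower), with a median of 0.07 against 0.01 over all bins. Its count was 204 without the second pre-S library, where 18.5% of all bins were called.

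At the 4 rises of smallest p in pre-S cells insulation had risen at imminent division too. On chromosome 2 (62750144–62799673), within the potassium channel gene Kcnh7, insulation went from −2.09 and −2.14 at 10 h to −1.39 and −1.15 in pre-S cells and −0.97 and −1.21 at imminent division. At a chromosome 12 minimum over no gene (71249495–71299723) it went from −2.02 and −1.90 to −1.27 and −1.32 in pre-S cells and −1.17 and −1.23 at imminent division. The 33 h groups overlapped at the first and not at the second, and the difference in insulation between them passed at neither (0.18 ± 0.10 SE, edgeR adjusted p = 0.250, and 0.09 ± 0.07 SE, edgeR adjusted p = 0.407), while that in the ratio passed at Kcnh7 (0.21 ± 0.06 SE, edgeR adjusted p = 0.00231). A second chromosome 2 minimum and one within 5730522E02Rik changed by 0.67 and 0.40 in pre-S cells and by 0.60 and 0.30 at imminent division.

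The largest fall of any minimum in pre-S cells was on chromosome 15 (58149984–58200170), over Fbxo32, a ubiquitin ligase gene best known from muscle, and Wdyhv1. Insulation there was 0.21 and 0.14 in the 3 h libraries, 0.21 and 0.25 in those of 10 h, −0.03 and 0.03 at imminent division, and −1.22 and −1.21 in pre-S cells, so that the pre-S libraries stood far below all others (log2 change −1.44 ± 0.05 SE, edgeR adjusted p = 2.52e-10). A second minimum of the same chromosome (70100123–70149972), over no protein-coding gene, went from −0.99 and −1.03 at 10 h to −1.80 and −1.72 in pre-S cells (−0.75 ± 0.09 SE, edgeR adjusted p = 6.29e-05) and to −0.45 and −0.59 at imminent division, but its cross-to-within ratio did not pass in pre-S cells (0.05 ± 0.06 SE, edgeR adjusted p = 0.600). Contacts between the windows of these 2 minima, 11950 kb apart, differed in the pre-S libraries. Between the 500 kb before the first and the 500 kb after the second there were 993 and 859 read pairs in pre-S cells, and 6, 20, 9, 20, 34 and 41 in the other libraries in the order of the groups. From after the first to after the second there were 320 and 290 in pre-S cells and 33 to 58 elsewhere. The pairs of windows that end before the second minimum went the other way, with 18 and 15 pairs in pre-S cells and 56 to 142 elsewhere from before the first, and 31 and 28 against 91 to 174 from after the first. Pairs from before to after the first minimum were 800 and 689 in pre-S cells and 1517 to 4211 elsewhere. Only the pre-S libraries came from FUCCI mice, and whether the cell stage or the strain carries this difference cannot be told apart. Insulation is counted along the reference order of the bins, and whether these chromosomes have that order here was not tested, so the pre-S values at these 2 minima may not measure a boundary. Leaving out the members of chromosome 15 at and between these minima changed the count of the contrast from 284 to 281.

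Imminent division and pre-S cells were both taken at 33 h, and their direct contrast called 396 minima, 389 higher and 7 lower at imminent division, where 14.3% of all bins were called, 9.64% higher and 4.63% lower. The median log2 change was 0.20 at the minima and 0.01 over all bins, and 90.6% of minima had a value above 0. Interchromosomal coverage in the offset gave 435 higher and 114 lower minima with a median of 0.13. In that fit 75.9% of all bins were called, 43.6% higher and 32.2% lower, with a median of 0.06. The share of minima called higher was then near that of all bins. The count was 82 without the first pre-S library and 170 without the second, with 0 lower in both, and 290 without the second imminent division library. In these fits 1.32%, 2.56% and 9.34% of all bins were called. The cross-to-within ratio rose at 638 minima and fell at 33 (background 58.8% called, 37.7% higher and 21.2% lower), with a median of 0.18 against 0.05, and without the second imminent division library 617 rose and 23 fell, beside 31.6% and 17.6% of all bins. With windows of 20 bins the medians were 0.09 for insulation (210 higher and 17 lower) and 0.08 for the ratio (453 higher and 125 lower). Over all bins the medians were then 0.00 and 0.02, with 9.47% higher and 4.43% lower for insulation and 38.3% higher and 26.2% lower for the ratio. At weaker minima insulation rose at 192 and fell at 24 of 1340, with a median of 0.07.

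By compartment, the median insulation difference between imminent division and pre-S was 0.23 where A met B (263 of 542 higher and 4 lower), 0.18 within A (112 of 276 higher and 0 lower) and 0.09 within B (14 of 123 higher and 3 lower). Over all bins of these classes 18.6%, 8.54% and 6.97% were called higher and 4.16%, 7.59% and 2.10% lower, with medians of 0.06, 0.00 and 0.00. The minima within B, of which 11.4% were called higher, stood nearest to their background. At 8 minima insulation was called higher than at 10 h at imminent division and lower in pre-S cells. The difference between the 33 h groups was called at each. Over all bins, 0.265% were called in opposite directions by this rule and 0.24% in this order. For pre-S against 10 h the cross-to-within ratio did not pass at some of these minima, the second of chromosome 15 among them. Of the 7 minima lower at imminent division, the 4 of smallest p were at Cyp2f2, a cytochrome P450 gene (−0.33 ± 0.07 SE, edgeR adjusted p = 0.0114), Gm17019 (−0.34 ± 0.09), Tyw1, a tRNA modification gene (−0.37 ± 0.10), and Prkab1, a subunit gene of AMP-activated kinase (−0.29 ± 0.08). Each was called in 4 or 5 of the 8 fits that left out 1 library.

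Some genes known for B cells and the cell cycle started in or next to these minima. Of 52 genes of the B cell list in tested bins, 2 started in or next to a strong minimum (3.85%), against 7.16% of 20023 protein-coding genes. One was Bcl6, the repressor that directs the germinal centre program, whose start lies in a minimum of chromosome 16 (23949662–24000034) with A on both sides. Insulation there was −1.30 and −1.35 in the 3 h libraries, −1.43 and −1.44 in those of 10 h, −0.59 and −0.52 at imminent division and −1.57 and −1.34 in pre-S cells, so that imminent division stood above all other libraries. The median crossing count of all bins was 1436 and 1869 at 10 h and 3015 and 3479 at imminent division. At Bcl6 the crossing pairs were 667 and 856 at 10 h and 2315 and 2839 at imminent division, in libraries of different depth. The log2 change was 0.88 ± 0.08 SE against 10 h (edgeR adjusted p = 3.09e-06), 0.89 ± 0.08 SE against pre-S (edgeR adjusted p = 2.69e-05), and −0.02 ± 0.09 SE between pre-S and 10 h (edgeR adjusted p = 0.889), where the cross-to-within ratio rose (0.18 ± 0.06 SE, edgeR adjusted p = 0.0339). The second was Foxo1, a transcription factor of B cell development, next to a minimum of chromosome 3 (52199828–52249626) with insulation of 0.40 and 0.37 at 10 h, 0.14 and 0.25 in the imminent division libraries and −0.13 and −0.06 in pre-S cells. These 3 groups did not overlap, but the cross-to-within ratio rose at imminent division (0.20 ± 0.04 SE) where insulation fell (−0.19 ± 0.05 SE).

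Of 30 genes of cell cycle and DNA replication, 2 started next to strong minima (6.67%). Next to Mcm2, a subunit of the replicative helicase, insulation changed by 0.01 ± 0.06 SE at imminent division (edgeR adjusted p = 0.844) and by −0.32 ± 0.07 SE in pre-S cells (edgeR adjusted p = 0.00130). Next to Cdk1, the mitotic kinase, it rose by 0.23 ± 0.07 SE at imminent division. Of 16 genes of chromosome architecture, CTCF and the subunits of cohesin and condensin among them, 0 started in or next to a strong minimum. Of 81 cytoplasmic ribosomal protein genes 12 did (14.8%), at 11 minima, of which 4 rose and 2 fell at imminent division and 0 rose and 5 fell in pre-S cells, with the largest rise next to Rpl37 (0.73 ± 0.07 SE). Olfactory receptor genes, which lie in clusters, gave 89 of 1121 (7.94%) at 23 minima, of which 20 rose and 2 fell at imminent division with a median of 0.42, and 7 rose and 0 fell in pre-S cells with a median of 0.07. Over all strong minima 64.0% rose and 2.86% fell at imminent division, and 20.7% rose and 9.43% fell in pre-S cells.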

How the data were processed

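The deposited files hold raw read-pair counts for pairs of 50 kb bins, 1 matrix per library. The authors aligned reads to mm10 with diffHic, marked duplicates and removed dangling ends. The matrices name no coordinates, so bins were rebuilt from MboI fragments of GRCm38, giving 53357 bins, the number in each matrix. Of 48088 autosomal bins, 756 were left out (over 10% undetermined sequence, or interchromosomal coverage over 4 times or under 0.25 of the median), and a window needed 50 of its 100 bin pairs. Protein-coding genes were those of GENCODE M21.

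Crossing counts were tested with edgeR 4.0.16 (R 4.3.3; robust quasi-likelihood fit, 8 libraries, 4 groups, no replicate block) with the chromosome mean as offset. The cross-to-within ratio was tested as a pair of counts per library with distance-matched offsets. P-values were adjusted over all 46751 bins. The 3 h libraries chose the minima, so no contrast with 3 h was tested. On simulated counts for imminent division versus 10 h, the insulation test recovered 100% of 100 bins changed by 0.5 (log2), and the ratio test 78%. They called 17 and 19 unchanged bins. The changed bins were drawn from all bins, whose crossing counts are higher than at the minima, and neighbouring bins were simulated independently. For the ratio, crossing and within counts were drawn independently, both with the spread estimated for insulation. In the data, the median SE at the minima in this contrast was 0.05 for the ratio and 0.08 for insulation. The rates therefore neither give the power at the minima nor rank the 2 tests. DESeq2 1.42.0 was an alternative. Read pairs carry no molecular identifiers.

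Named minima were the 5 most prominent, up to 4 of smallest p in each direction and contrast with groups that do not overlap, those at B cell genes, and those around the threshold; 2 of these are not reported here. The minima, lists and tests were chosen with earlier results of these data known. The chromosome 15 contacts were examined after its values were seen. The ribosomal protein list left out pseudogene copies and kinases whose symbols begin alike.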

Additional observations from a re-analysis of the deposited data

Results flagged for a closer look

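Insulation was called in opposite directions against 10 h at imminent division and in pre-S cells at 8 minima, each with a called difference between the 33 h groups. That is 0.847% of the minima, where 0.265% of all bins met the same rule, and at all 8 it was higher at imminent division. One of them was the second chromosome 15 minimum (70100123–70149972), where imminent division exceeded pre-S by 1.24 on the log2 scale. Long-range contacts, which entered no comparison of insulation, gave 993 and 859 read pairs in the pre-S libraries between the windows before the first and after the second chromosome 15 minimum, against 6 to 41 in the other 6 libraries, 80.2-fold the 10 h mean after division by library size. Their cause was not tested.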

How the results depend on the processing

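The total counts of minima called between imminent division and 10 h, though not the counts of lower ones, stayed within 1.5 times of the reported ones under all alternatives run, from 460 to 742 for insulation and 542 to 904 for the ratio, and from 444 to 682 and 697 to 779 when 1 library was left out (all bins called: 46.8% to 70.4% and 33.8% to 77.8%, and 46.1% to 74.6% and 58.0% to 73.7%). For pre-S versus 10 h, insulation called 311 with TMM factors (the majority turned to lower, as it did over all bins), 472 with interchromosomal coverage in the offset, 141 with a fold change over 1.1 (glmTreat) and 145 to 357 without 1 library (all bins: 60.3%, 54.6%, 38.2% and 36.7% to 65.8%). The ratio called 180 with a window of 5 bins, 84 with glmTreat, 199 with DESeq2 and 204 to 366 without 1 library (all bins: 12.3%, 3.92%, 15.9% and 17.5% to 32.1%). Between imminent division and pre-S, insulation called 227 with a window of 20 bins, 165 with glmTreat and 82 to 522 without 1 library (all bins: 13.9%, 2.65% and 1.32% to 28.5%), and the ratio 328 with glmTreat and 459 to 685 without 1 library (all bins: 12.6% and 40.1% to 61.0%). The number of strong minima was 1451 with a window of 5 bins and 596 with a window of 20 bins, and the mean share found in the other 6 libraries fell from 91.5% to 68.5% when the same bin was asked for. The causes were not tested. Deviations of same-numbered libraries from their group means correlated at −0.75 (3 h with imminent division) to 0.25, and the numbers were not taken as pairs. A strong negative value also means variation shared between groups, and its source was not tested. With the replicate block, insulation called 573, 227 and 296 minima in the order of the report and the ratio 771, 331 and 663. The block thus changed no total by over 1.5 times, which says nothing of the counts by direction. Leaving out minima with an excluded bin in the window was chosen after seeing the data. With 2 libraries per group, p-values rest on the spread shared by the 4 groups, and the shallowest library held 5.21 read pairs per bin pair at the median minimum.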
